A study of Mus musculus with 4 samples.

Results

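This account covers 116 transcripts of the RNA splicing machinery in mouse morulae, out of the 13658 genes in the authors' deposited table. They were picked by symbol: Sf3a, Sf3b, Snrp, Srsf, Prpf, Hnrnp, U2af, Sf1, Srrm and numbered Lsm and Rbm genes, with the imprinted gene Snrpn left out. By what the proteins do, 34 encode proteins of the small nuclear ribonucleoproteins (snRNPs), 12 SR proteins, 20 hnRNP proteins and 50 other factors. The symbol pattern also caught Rbm3os, a noncoding transcript named for its antisense position to Rbm3, which encodes no splicing factor, and many Rbm genes with roles outside splicing.

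The embryos were wild-type morulae, the stage just before the blastocyst, grown in M16 medium after injection of fertilized eggs with 4 to 5 pL of siRNA at 100 µM. The siNT group (2 samples) received a non-targeting siRNA pool and the siNr1h2 group (2 samples) a pool against Nr1h2, the gene of the oxysterol receptor LXRβ. The labels give neither the number of embryos in a sample nor whether the replicates were separate injections, so p-values measure the spread between these samples, which may be technical. The deposited values are 1 comparison of the groups, with no value per sample: a mean normalized count over all 4 samples, a log2 fold change of siNr1h2 over siNT with its standard error (SE), and p-values. The values are for morulae and not for single cells, so fewer cells of a type and less RNA per cell cannot be told apart.

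Introns are removed from pre-mRNA by the spliceosome, in which the U1 snRNP recognises the 5′ splice site and the U2 snRNP the branch point before the U4/U6.U5 particle joins and catalysis begins. SR proteins and hnRNP proteins bind exons and introns and steer which sites are used, often in opposite directions. In the early mouse embryo this machinery is first inherited from the egg and then made from the embryo's own genome.

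Nr1h2 itself had a mean normalized count of 425 and was 5.03 times lower in siNr1h2 (95% interval 3.89 to 6.50, adjusted p = 3.61e-31) in the authors' deposited table. All 8 markers chosen for the preimplantation embryo were present, at mean normalized counts of 90.8 to 2181, and 1 of them was called in the authors' deposited table. Of 8 cumulus and granulosa cell markers 2 were listed, with a summed mean of 4.84, of 5 sperm markers 0, and of 4 blood markers 2, with a summed mean of 44.2 in the authors' deposited table. None of these was called, and their part in the results was not tested.

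Splicing factor transcripts were abundant, at a median of 472 mean normalized counts per kilobase of transcript against 70.9 for all tested genes, and 1 of them passed the test after Nr1h2 knockdown. At an adjusted p of 0.05, 1 of the 116 members was lower and 0 were higher in the authors' deposited table, whose DESeq2 comparison called 1.52% of 12069 genes lower and 0.456% higher. Those are 184 and 55 genes, and the split became 142 and 82 when fold changes were centred on genes with means of 500 or more, and 431 and 37 when centred on ribosomal protein genes. The lower member was Hnrnpa1. Snrpn, the imprinted relative of Snrpb outside the set, stood at -0.21 ± 0.12 (SE, mean 2826) in the authors' deposited table. At an unadjusted p of 0.05, 11 members lay lower (9.48%, against 7.31% of all tested genes) and 8 higher (6.90%, against 5.97%). Over the 85 members whose mean normalized count reached 500 the counts were 9 lower (10.6%) and 4 higher (4.71%), and 10.8% and 4.07% of the 3755 genes at that abundance lay past the same limit. These shares are near the background. The median log2 fold change of the members was 0.03, with 64 above 0 and 52 below, beside 0.01 for all genes of the authors' deposited table. Over the 85 members with a mean of at least 500 the median was 0.004, with 51.8% above 0. All 3755 genes at that abundance had a median of -0.038, with 42.1% above 0, and this difference was not tested.

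**Figure D1:**
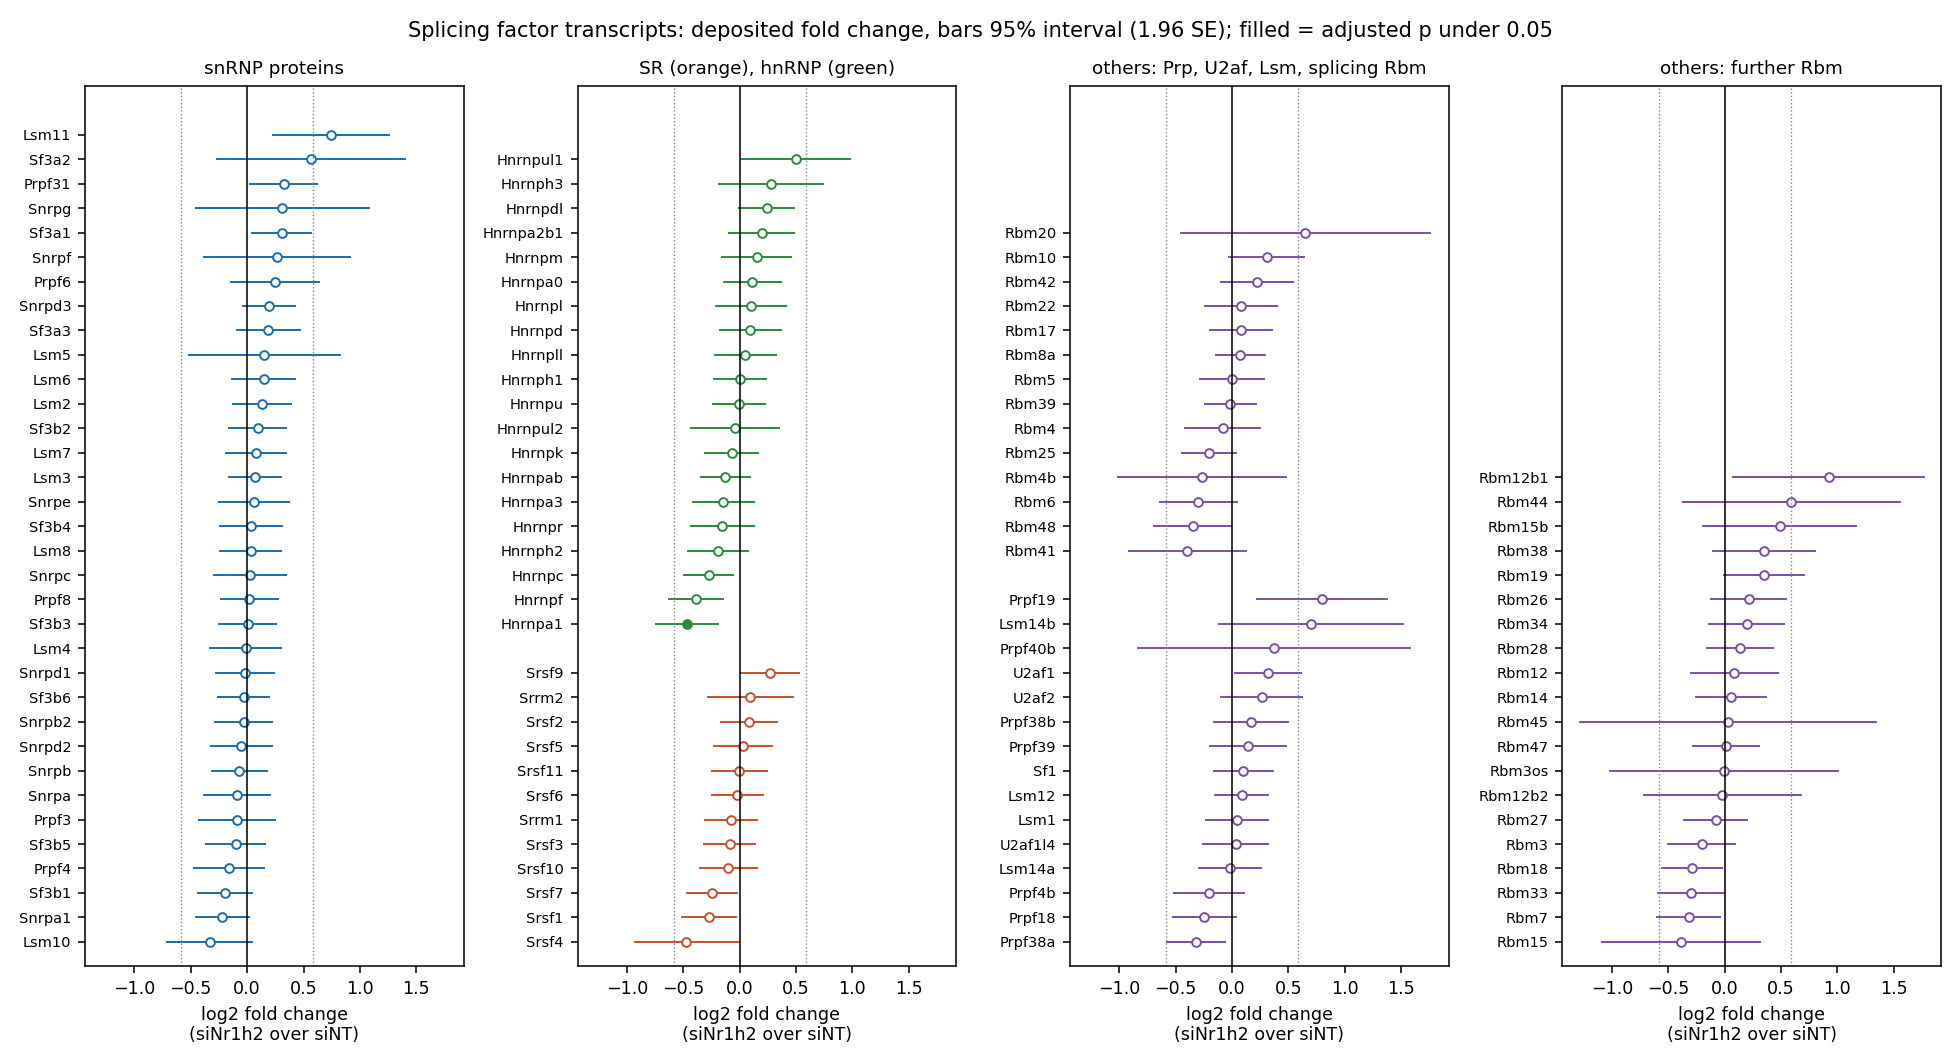
Each point is 1 of the splicing factor transcripts reported singly, placed by its deposited log2 fold change (siNr1h2 over siNT, horizontal axis), with bars for the 95% interval and dotted lines at a change of 1.5 times. Only Hnrnpa1, the lowest of the hnRNP genes at -0.47, is filled for an adjusted p under 0.05.

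**Figure D2:**
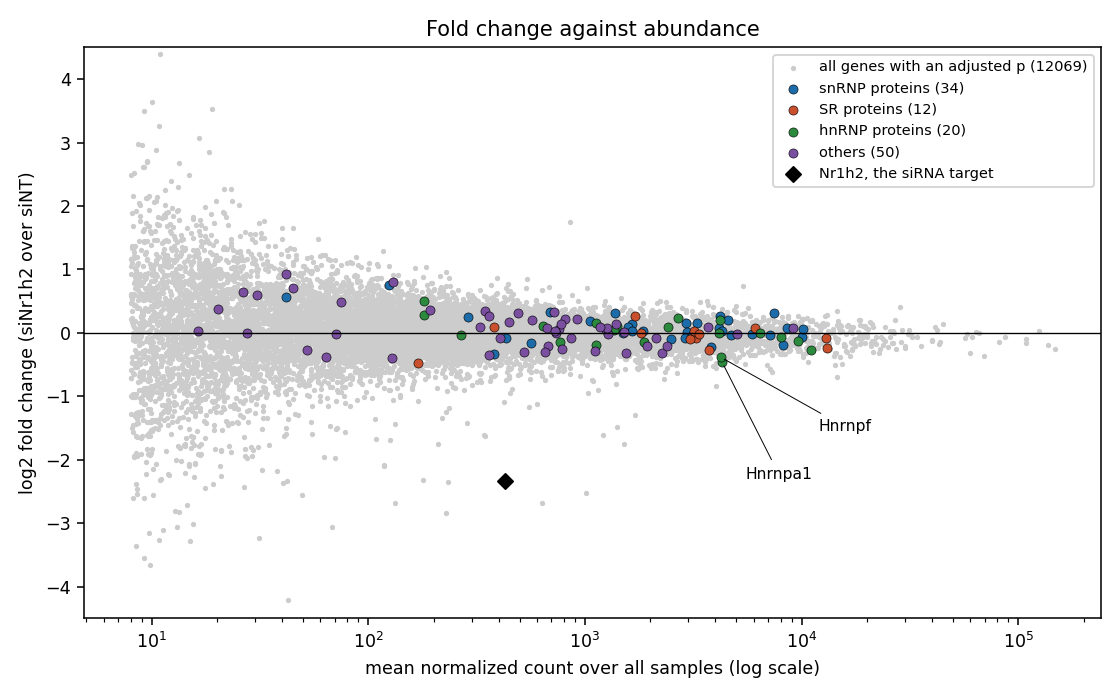
The deposited log2 fold change (vertical axis) is plotted against the mean normalized count over all samples (horizontal axis, log scale) for all 12069 tested genes in grey and the 4 classes of splicing factors in colour. The members lie between -0.47 and 0.92, with the widest values at low counts, while the siRNA target Nr1h2 lies at -2.33.

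Transcripts of the snRNP proteins were the most abundant class per length and none of the 34 passed the test. Their median was 1739 mean normalized counts per kilobase of transcript, against 472 for all members. The highest were Snrpe, of the Sm ring that surrounds the RNA of the U1, U2, U4 and U5 particles, at 20188 counts per kilobase, and Lsm3, of the Sm-like ring of U6, at 13783. Per-length levels rest on 1 transcript model per gene and are approximate.

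The 7 genes of the Sm ring covered log2 fold changes from -0.07 to 0.31 in the authors' deposited table. Snrpb (-0.07 ± 0.12, SE), Snrpd1 (-0.02 ± 0.13), Snrpd2 (-0.05 ± 0.14) and Snrpe (0.06 ± 0.16) lay near 0, and Snrpd3 lay at 0.19 ± 0.12 in the authors' deposited table. Snrpf (0.26 ± 0.33) and Snrpg (0.31 ± 0.39) had the highest values of the ring and the widest errors in the authors' deposited table. The particle-specific genes lay between -0.22 and 0.03: Snrpa (-0.09 ± 0.15) and Snrpc (0.03 ± 0.16) of the U1 snRNP, and Snrpa1 (-0.22 ± 0.12) and Snrpb2 (-0.03 ± 0.13) of the U2 snRNP, in the authors' deposited table. Near-identical pseudogenes are annotated for Snrpa (2) and Snrpc (3).

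SF3A and SF3B are the complexes that join the U2 snRNP to the branch point. All 3 SF3A genes lay above 0 in the authors' deposited table, where 50.6% of all tested genes and 42.1% of those with a mean of at least 500 did. Sf3a1 was at 0.31 ± 0.13 (adjusted p = 0.269), Sf3a3 at 0.19 ± 0.14 and Sf3a2 at 0.56 ± 0.42 with a mean normalized count of only 41.8. The 6 SF3B genes lay evenly, 3 above 0 and 3 below, from Sf3b1 at -0.20 ± 0.12, the subunit that holds the branch point adenosine, to Sf3b2 at 0.09 ± 0.13 in the authors' deposited table. For all 6 SF3B genes a change of 1.5 times lay outside the 95% interval.

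The U6 Sm-like ring was even more compact, from Lsm4 at -0.01 ± 0.16 to Lsm5 at 0.15 ± 0.34 and Lsm6 at 0.15 ± 0.14 in the authors' deposited table. In this ring 6 of 7 genes lay above 0, beside 50.6% of all tested genes and 42.1% of those with a mean of at least 500. This difference was not tested. Among Prp proteins of the tri-snRNP, Prpf8, the catalytic scaffold of the spliceosome, had a log2 fold change of 0.02 ± 0.13 and Prpf31, which bridges the U4/U6 and U5 particles, 0.33 ± 0.15 (adjusted p = 0.315) in the authors' deposited table. Prpf6 stood at 0.25 ± 0.20, Prpf3 at -0.09 ± 0.17 and Prpf4 at -0.16 ± 0.16 in the authors' deposited table. The Sm-like genes of the U7 particle, which cuts histone pre-mRNA and takes no part in splicing, lay on opposite sides. Lsm11 was at 0.75 ± 0.26 (adjusted p = 0.118, mean normalized count 125) and Lsm10 at -0.33 ± 0.19 (mean 379) in the authors' deposited table, and the difference between them was not tested.

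SR proteins carry a domain rich in arginine and serine and mostly favour the use of the exons they bind. None of the 12 genes of this class passed the test. Of the 12, 8 lay below 0 and 4 above (33.3%), where 50.6% of all tested genes lay above 0. Among all genes with a mean of at least 500 that share was 42.1%. The median log2 fold change of the class was -0.05 in the authors' deposited table, beside -0.04 for all genes at that abundance. The lowest were Srsf4 (-0.47 ± 0.23), Srsf1 (-0.27 ± 0.12) and Srsf7 (-0.24 ± 0.11), with adjusted p-values of 0.362, 0.299 and 0.311 in the authors' deposited table. Srsf1, also called ASF/SF2, is the best studied member, and Srsf7 and its neighbour in abundance Srsf3 (-0.09 ± 0.12) had the highest mean normalized counts of all members, 13119 and 12991, in the authors' deposited table.

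Srsf9 was the highest at 0.27 ± 0.13 (adjusted p = 0.362) in the authors' deposited table. Srsf2 (0.08 ± 0.13), Srsf5 (0.03 ± 0.13), Srsf6 (-0.02 ± 0.12), Srsf10 (-0.10 ± 0.13) and Srsf11 (0.00 ± 0.12) lay near 0, as did the SR-related matrix proteins Srrm1 (-0.07 ± 0.12) and Srrm2 (0.09 ± 0.19) in the authors' deposited table. For 11 of the 12 genes a change of 1.5 times lay outside the 95% interval, the exception being Srsf4 with a mean normalized count of 169. Srsf4 overlaps the antisense gene Gm12992, which the authors' deposited table lists at -0.42 ± 0.23 (log2 fold change, mean 172), and with a kit that does not mark strand the reads of these genes cannot be told apart.

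The hnRNP proteins coat nascent transcripts and often keep splice sites silent. Hnrnpa1, which represses exons and competes with SR proteins, was 1.38 times lower in siNr1h2 (95% interval 1.14 to 1.67, adjusted p = 0.0472, log2 fold change -0.47 ± 0.14, mean normalized count 4298) in the authors' deposited table. Next to it, Hnrnpf, which binds runs of G, lay 1.31 times lower (1.10 to 1.55, adjusted p = 0.0709, mean 4236) in the authors' deposited table. Hnrnpc, which binds runs of U, followed, 1.21 times lower (1.04 to 1.41, adjusted p = 0.221) at a mean of 10993 in the authors' deposited table.

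The call of Hnrnpa1 was lost with no low-count filter (Benjamini-Hochberg adjusted p = 0.0534, the fold unchanged by construction) and after centring on genes with a mean of at least 500 (log2 fold change -0.43, adjusted p = 0.0821). It was also lost once a trend over length and GC of the transcripts was removed (-0.39, adjusted p = 0.159), and with Holm adjustment. With a t distribution 0 genes of the whole table passed, so that setting says nothing about Hnrnpa1. The call was kept among genes with a mean of at least 50 (Benjamini-Hochberg adjusted p = 0.0412) and after centring on ribosomal protein genes (-0.57, adjusted p = 0.00389). Near-identical pseudogenes are annotated at other places for Hnrnpa1 (1) and Hnrnpf (2). The sources used here do not give how reads that match a gene and its copy were counted.

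The close relatives of Hnrnpa1 did not pass. Hnrnpa2b1, at a like mean normalized count of 4216, lay at 0.20 ± 0.15, Hnrnpa0 at 0.11 ± 0.13 and Hnrnpa3 at -0.14 ± 0.14 in the authors' deposited table. Hnrnpa3 is uncertain, since 24 near-identical transcripts of other genes are annotated and 1 of them, Gm6793, is in the authors' deposited table at 0.24 ± 0.14 (log2 fold change, mean 1500). The promoters of Hnrnpa1 and Hnrnpa2b1 are shown because the first belongs to the 1 member that was called and the second to its relative of like abundance. Both come from RefSeq on the later build GRCm38.p6, not the build of the submitters' notes, from 250 bases before to 50 after the annotated start. They lie at chr15:103240147-103240446 on the plus strand and chr6:51469845-51470144 on the minus strand. Capitals mark CCAAT on either strand.
Hnrnpa1: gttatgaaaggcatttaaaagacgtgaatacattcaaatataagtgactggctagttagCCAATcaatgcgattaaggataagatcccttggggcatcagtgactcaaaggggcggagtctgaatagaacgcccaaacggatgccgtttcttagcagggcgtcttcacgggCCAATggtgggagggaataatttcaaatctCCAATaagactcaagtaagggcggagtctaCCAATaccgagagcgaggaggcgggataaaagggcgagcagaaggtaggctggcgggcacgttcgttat
Hnrnpa2b1: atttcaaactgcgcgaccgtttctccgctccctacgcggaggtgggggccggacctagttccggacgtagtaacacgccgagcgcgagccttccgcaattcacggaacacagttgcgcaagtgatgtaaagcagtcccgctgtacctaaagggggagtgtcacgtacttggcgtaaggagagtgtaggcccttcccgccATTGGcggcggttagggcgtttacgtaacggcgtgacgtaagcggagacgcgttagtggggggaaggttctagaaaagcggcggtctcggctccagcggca
The Hnrnpa1 window held 4 matches to CCAAT, 16 CpG dinucleotides and 48.3% GC, and the printed Hnrnpa2b1 window 1 match, 34 CpG dinucleotides and 60.0% GC. Another annotated start of Hnrnpa2b1 has an overlapping window, chr6:51469796-51470095, which is not printed. It held 1 match, 33 CpG dinucleotides and 61% GC.

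Promoter sequences were found for 96 of the 116 members. CCAAT, searched on both strands, was in 47 of the 96 (49.0%) and in 41.1% of all 27025 genes with a promoter sequence. The letters AGGTCA, the core letters of nuclear receptor sites, were in 14 members (14.6%) against 18.1% of all genes, and neither printed window holds them. A direct repeat of those letters spaced by 4 bases, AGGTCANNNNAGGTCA, is an exact form of the site bound by liver X receptors with their partner. It was in 0 of 96 members and in 4 of all 27025 genes (0.0148%). So rare an exact match cannot show whether members hold sites for these receptors. These counts describe letters in windows of 300 bases only. A gene with several annotated starts counted if any of its windows held the letters.

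The remaining hnRNP genes lay on both sides of 0. Over the whole class it was 10 of the 20 each way, and the median log2 fold change was 0.00. Hnrnpul1 (0.50 ± 0.24, adjusted p = 0.356, mean normalized count 182) was the highest, and Hnrnph3 (0.28 ± 0.24) and Hnrnpdl (0.24 ± 0.12) followed in the authors' deposited table. The abundant Hnrnpu, a nuclear scaffold protein (-0.01 ± 0.12), Hnrnpk, which binds runs of C (-0.07 ± 0.12), Hnrnpab (-0.13 ± 0.11) and Hnrnph1 (0.00 ± 0.12) lay close to 0 in the authors' deposited table. Hnrnpd, Hnrnpl, Hnrnpll and Hnrnpm lay between 0.05 and 0.15 and Hnrnph2, Hnrnpr and Hnrnpul2 between -0.19 and -0.04 in the authors' deposited table.

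Among the other 50 factors none passed the test, with 29 above 0 (58.0%, against 50.6% of all tested genes) and 21 below. All 4 genes that read the branch point and the 3′ splice site lay above 0 in the authors' deposited table: U2af1 (0.32 ± 0.15, adjusted p = 0.317), which reads the terminal AG, its relative U2af1l4 (0.03 ± 0.15), U2af2 (0.26 ± 0.18), which binds the pyrimidine tract, and Sf1 (0.10 ± 0.13), the first branch point protein. Over all tested genes 50.6% lay above 0. The share was 48.8% of those with 45 to 55% GC and 65.2% of those with at least 55% GC, and these 4 transcripts have 54.1% to 55.7% GC. Their levels were modest, with mean normalized counts of 359 to 1178. U2af1 and U2af2 have annotated near-identical pseudogenes, and U2af1l4 overlaps another annotated gene on the same strand.

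Of the 8 Prp factors outside the snRNP core, Prpf19, the ubiquitin ligase that gives the Prp19 complex its name, had the highest log2 fold change at 0.80 ± 0.29, a fold of 1.74 (95% interval 1.17 to 2.59, adjusted p = 0.149), at a mean normalized count of 130 in the authors' deposited table. Prpf38a, needed to activate the assembled spliceosome, was the lowest at -0.32 ± 0.13 (adjusted p = 0.222, mean 2259) in the authors' deposited table. Prpf18 (-0.25 ± 0.14), a factor of the second step, the kinase gene Prpf4b (-0.21 ± 0.16), Prpf39 (0.14 ± 0.17), Prpf38b (0.17 ± 0.17) and Prpf40b (0.37 ± 0.61) lay between in the authors' deposited table. The Sm-like genes outside the nuclear rings included Lsm1 (0.05 ± 0.14), of the cytoplasmic ring that promotes mRNA decay, Lsm12 (0.08 ± 0.12), Lsm14a (-0.02 ± 0.14), of P-bodies, and Lsm14b (0.70 ± 0.42, at a mean under 50) in the authors' deposited table.

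The 34 Rbm rows had a median of 160 mean normalized counts per kilobase, below the 472 of all members and above the 70.9 of all tested genes. Of 14 counted as splicing factors 6 lay above 0 (42.9%, against 50.6% of all tested genes) and 8 below. Rbm8a, a core protein of the exon junction complex, had the highest mean normalized count (9076) and stood at 0.07 ± 0.11, and Rbm39, a coactivator related to U2af2, followed at 5028 and -0.01 ± 0.11 in the authors' deposited table. Rbm48, of the minor spliceosome, lay at -0.35 ± 0.18 (adjusted p = 0.366), Rbm41 at -0.40 ± 0.26 and Rbm20, a muscle splicing factor with a mean of 26.4, at 0.65 ± 0.56 in the authors' deposited table. The related alternative splicing regulators Rbm5 (0.00 ± 0.15), Rbm6 (-0.30 ± 0.17) and Rbm10 (0.31 ± 0.17) did not lie on 1 side, and Rbm17, Rbm22 and Rbm42 lay between 0.08 and 0.22 in the authors' deposited table. Rbm10 is uncertain, since a near-identical pseudogene, Gm15455, is listed at -0.69 ± 0.34 with a mean of 66.8 in the authors' deposited table. Rbm4 (-0.08 ± 0.17), Rbm4b (-0.26 ± 0.38) and Rbm25 (-0.21 ± 0.12) lay below 0 in the authors' deposited table.

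The other 20 Rbm rows have other or unclear roles, and 12 lay above 0 (60.0%, against 50.6% of all tested genes). Rbm12b1 had the highest value of all members, 0.92 ± 0.43 (adjusted p = 0.319, mean normalized count 41.9), while Rbm12b2, a gene with a near-identical transcript, stood at -0.02 ± 0.36 in the authors' deposited table, so both values are uncertain. Rbm7, of the complex that hands nuclear RNA to the exosome, lay at -0.32 ± 0.14 (adjusted p = 0.297), Rbm18 at -0.29 ± 0.14 and Rbm33 at -0.30 ± 0.15 in the authors' deposited table. Rbm3, induced by cold, lay at -0.20 ± 0.15 and Rbm3os at -0.01 ± 0.52 in the authors' deposited table. Rbm15 (-0.38 ± 0.36) and Rbm15b (0.49 ± 0.34), which guide RNA methylation, had low mean normalized counts (63.5 and 75.2) and wide errors in the authors' deposited table. The rest were Rbm12, Rbm14, Rbm19, Rbm26, Rbm27, Rbm28, Rbm34, Rbm38, Rbm44, Rbm45 and Rbm47, which lay between -0.08 and 0.59 in the authors' deposited table.

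At the deposited SEs and with normal intervals, most members had room only for changes under 1.5 times. These intervals rest on 2 samples per group, and wider ones from a t distribution were not computed. A change of 1.5 times in either direction lay outside the 95% interval for 81 of the 116 (69.8%), against 40.7% of all tested genes and 36.0% of all genes. Abundance goes with this share, since it was 75 of 85 members (88.2%) and 86.4% of all genes at a mean normalized count of at least 500. Of the 35 members whose interval reached a change of 1.5 times, 25 had means under 500. The other 10 were Hnrnpa1, Hnrnpf, Prpf31, U2af1, Rbm6, Rbm7, Rbm33, Snrpf, Snrpg and Lsm5. Of these, Snrpf, Snrpg and Lsm5 had wide errors at high counts.

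Snrpg, Snrpf and Lsm5, each a subunit of a heptameric ring, had SEs of 0.39, 0.33 and 0.34 on the log2 scale at mean normalized counts of 7440, 4197 and 3274 in the authors' deposited table. These were 3.24, 2.69 and 2.73 times the median SE of the genes nearest in abundance. Genes of this kind were few: 43 of 2344 with a mean of at least 1000 and a transcript length had an SE over 2 times that of their neighbours. They were 27 of 107 genes with transcripts under 600 nt (25.2%) and 16 of 2237 longer ones (0.715%). Lsm5 belongs to the short group at 494 nt, while the models of Snrpf and Snrpg are 861 and 1055 nt long. Equally short Lsm7 (468 nt) and Snrpe (503 nt) had SEs of 1.12 and 1.30 times those of their neighbours. Lsm5 has 2 annotated near-identical pseudogenes, as Lsm7 does, and Snrpe has 1. Snrpf overlaps the antisense gene Ccdc38, whose SE was also wide at 0.70 for a mean of 160 in the authors' deposited table. With no value per sample it is not known which replicate differed, and the parts of transcript length, copies and overlap were not tested.

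**Figure D3:**
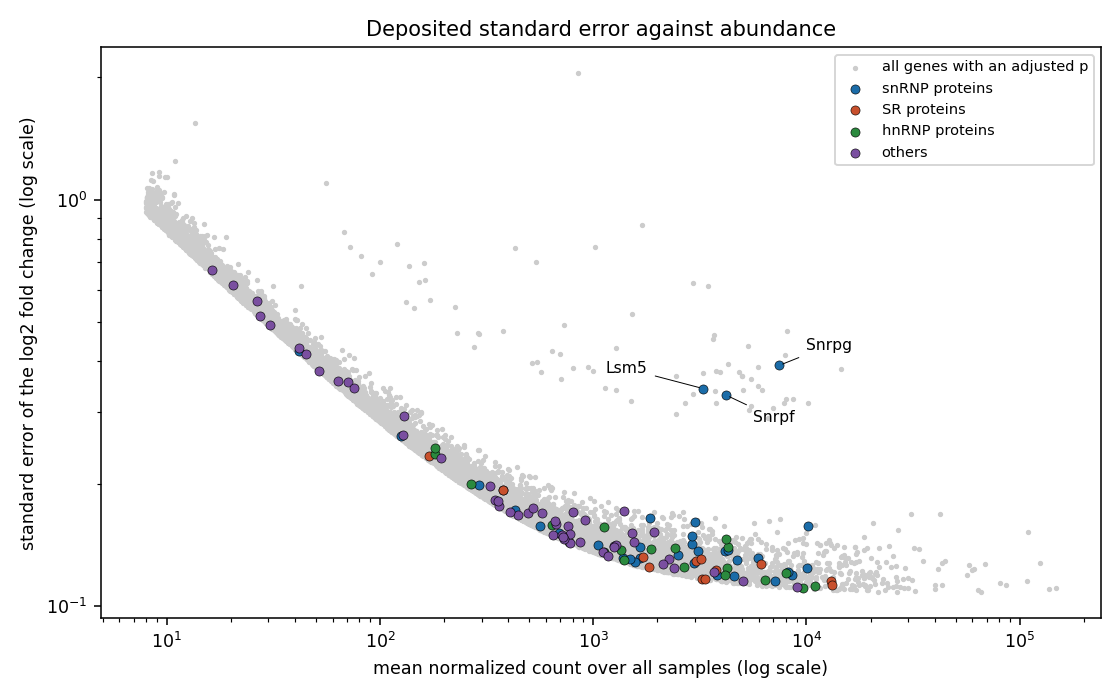
The deposited SE of the log2 fold change (vertical axis, log scale) is plotted against the mean normalized count (horizontal axis, log scale) for all tested genes in grey and splicing factors in colour. Members follow the main band except Snrpg, Snrpf and Lsm5, which lie in a separate cloud near 0.33 to 0.39.

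The fold changes of splicing factors moved with the GC content of their transcripts, as those of all genes did. Of 18 members with at least 55% GC 14 lay above 0 (77.8%, median log2 fold change 0.17), against 16 of 40 with under 45% GC (40.0%, median -0.02). Over all tested genes the shares were 65.2% and 38.3%. Across the 85 members with a mean of at least 500, Spearman's rho between fold change and GC was 0.34, and across 3746 genes at that abundance 0.32. Genes share the same 4 libraries, so these values describe the libraries. The 8 members higher at an unadjusted p of 0.05 had a median GC of 52.5% and the 11 lower ones 44.8%. With the trend removed, 9 of these 11 lay nearer to 0, among them Hnrnpa1 at -0.39, Hnrnpf at -0.31, Hnrnpc at -0.18, Srsf1 at -0.15 and Srsf7 at -0.13, while Srsf4 lay at -0.55 and Rbm33 at -0.30. Of the 8 higher ones 5 lay nearer to 0, Lsm11 at 0.74 and Prpf19 at 0.76 among them, and Rbm12b1, Prpf31 and Sf3a1 lay farther from it, at 1.03, 0.34 and 0.32.

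**Figure D4:**
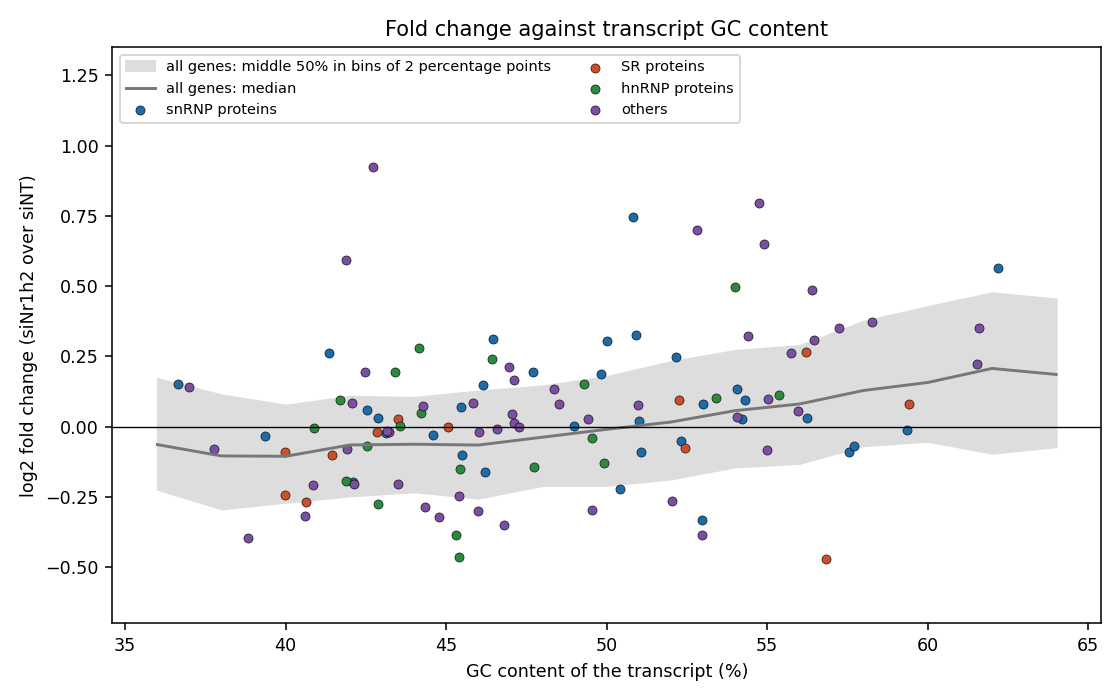
The deposited log2 fold change of each splicing factor (vertical axis) is plotted against the GC content of its transcript (horizontal axis), over the median (line) and the middle 50% (band) of all tested genes. Both the band and the members rise from low to high GC, and Srsf4 at 56.8% GC and -0.47 lies far below the band.

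Splicing genes outside the symbol pattern were counted from lists. Of 187 such genes from 6 lists, the authors' deposited table has 2 lower (1.08% of the 185 tested, against 1.52% of all tested genes) and 0 higher (against 0.456%). No adjusted p is given for 2 of them, the other 183 missed the threshold, and the median log2 fold change was 0.01. At an unadjusted p of 0.05, 7 lay lower (3.78%, against 7.31% of all tested genes) and 7 higher (3.78%, against 5.97%). Crnkl1, a scaffold protein of the Prp19 complex, was 1.48 times lower (95% interval 1.22 to 1.79, adjusted p = 0.00865, mean normalized count 1529), and Bud31 of the same stage of assembly lay at -0.29 ± 0.11 (adjusted p = 0.184) in the authors' deposited table. Rbmxl2, an intronless relative of Rbmx best known from male germ cells, was 1.85 times lower (1.30 to 2.65, adjusted p = 0.0410, mean 159) in the authors' deposited table. Removal of the length and GC trend ended the call of Crnkl1 at a log2 fold change of -0.48 (Benjamini-Hochberg adjusted p = 0.0512), while Rbmxl2 then stood at -1.15 (adjusted p = 0.00244). Centring on genes with a mean of at least 500 ended the call of Rbmxl2 at -0.85 (0.0592).

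The list of helicases, Prp19 complex and step factors had 1 of 42 genes lower, that of hnRNP-like and alternative splicing regulators 1 of 43, and the other 4 lists 0, in the authors' deposited table. Among snRNP genes with other symbols (25 listed) the smallest p-values were those of Snrnp27 (0.36 ± 0.13) and Snu13 (-0.25 ± 0.12). Among 28 SR protein kinases and SR-like genes they belonged to Rnps1 (-0.43 ± 0.16), the SR protein kinase gene Clk1 (-0.35 ± 0.15) and Son (0.33 ± 0.14) in the authors' deposited table. Raly (0.42 ± 0.15) followed Rbmxl2 among the hnRNP-like genes in the authors' deposited table. Of 28 genes of snRNP assembly and snRNA processing, Tgs1, which trimethylates the snRNA cap, had the smallest p (-0.48 ± 0.17, adjusted p = 0.115), and of 21 of the exon junction complex and mRNA export, Casc3 (0.34 ± 0.15) in the authors' deposited table.

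**Figure D5:**
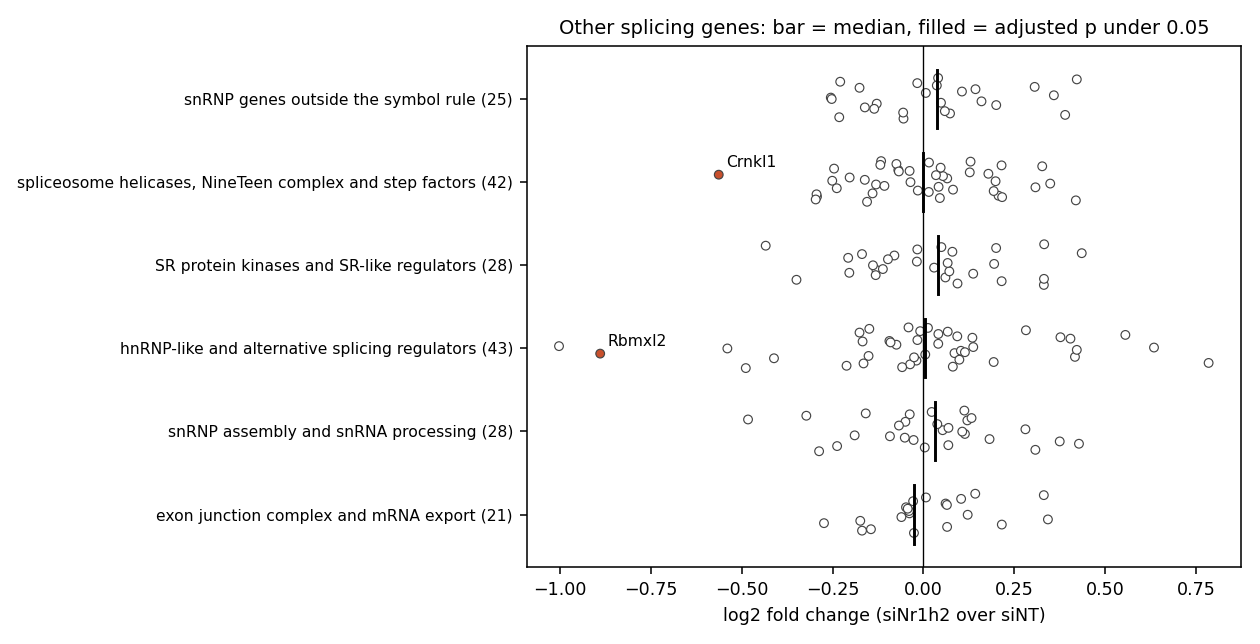
Each point is 1 splicing gene outside the symbol pattern, placed by its deposited log2 fold change (siNr1h2 over siNT, horizontal axis) in its list, with the number of genes listed and a bar at the median. The medians lie between -0.03 and 0.04, and the filled points, Crnkl1 and Rbmxl2, are the 2 genes with an adjusted p under 0.05.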

How the data were processed

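Polyadenylated RNA of 4 mouse morula samples was made into full-length cDNA libraries with a SMART-Seq v4 kit and Nextera XT tagmentation, which does not mark strand, per the labels' protocols. The submitters' processing notes name STAR, HTSeq 0.12.4, RSEM, Cufflinks 2.2.1, edgeR, DESeq2 and build mm9 with no role or order. The authors deposited 1 table with the column names of DESeq2 results, per the file headers: a mean normalized count over all samples, used here as a signal value, a log2 fold change with its SE, a Wald score, and a p-value with its adjusted p-value. Depth per sample is unknown, and the table holds 0 per-sample columns without a mapped sample. The deposited adjusted p equalled the Benjamini-Hochberg value over 12069 genes, and genes without one had means up to 8.00.

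Calls are the authors' own at an adjusted p of 0.05. Folds and 95% intervals (1.96 SE) were computed from the deposited values. The members, lists and alternatives were chosen with earlier results of these data known. Members to be named were those past 0.05, unadjusted or adjusted, and the highest, lowest and most abundant of each role group. Groups of 12 or fewer could be given gene by gene. A few genes are not reported singly here but enter the counts. Of 200 other splicing genes listed, 187 were in the table. Transcript length and GC came by symbol from GENCODE M21 (GRCm38), as the median-length principal transcript, for 99.3% of genes and all 116 members. A near-identical copy is a transcript of another gene with 95% identity over 50% of the member's length (BLAST 2.17.0), found for 25 members, at another place in the genome for 19. Only some of these 25 members are marked where their values are given. Overlaps and strands were read from the same annotation. Scripts used Python 3.11.15, pandas 2.3.3 and scipy 1.17.1 and were tested on simulated data.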

Additional observations from a re-analysis of the deposited data

How the results depend on the processing

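No paired analysis was possible because the table holds no value per sample. For the same reason leaving out replicates, the replicate block and a second count test were not run. The count of lower members was 1 in the deposited comparison. It was 0 at a threshold of 0.01, with a change of at least 1.5 times, with no low-count filter, with Holm adjustment, after centring on genes with a mean of at least 500, with a t distribution of 2 degrees of freedom and after removal of a length and GC trend, which was chosen after the data were seen. It was 2 at a threshold of 0.1 (Hnrnpa1 and Hnrnpf) and 4 after centring on ribosomal protein genes (with Hnrnpc and Prpf38a). The adjusted p of Hnrnpa1 ranged from 0.00389 (Benjamini-Hochberg, centred on ribosomal protein genes) up to 1 (Holm). With the t distribution 0 genes of the whole table passed, so that setting says nothing about single genes. The count of lower genes outside the symbol pattern was 2. It was 1 at 0.01, with the minimum fold, with centring on genes of at least 500 and with the trend removed, 0 with Holm adjustment and the t distribution, and 5 after centring on ribosomal protein genes. Except where the construction of the setting shows it, the cause was not tested. No member was higher under any of these settings. The median of the members stood between -0.08 and 0.07 over all scalings and subsets run, below 0 only when centred on ribosomal protein genes, whose own median was 0.10. The count of members with a change of 1.5 times outside the interval was 79 to 82 over the centrings and the abundance subset run. All of these used normal intervals.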
